A study of Mus musculus with 56 samples.

Results

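The jejunum of wild type (WT) BALB/C mice was compared at 24 h and at 6 h after 3 Gy of ionizing radiation. The comparison used all arrays labelled WT, jejunum and either time, which were 4 arrays at 24 h and 5 at 6 h, so 9 of the 28 jejunum arrays and of the 56 arrays of the series. RNA came from whole jejunum, and every array held the RNA of a different mouse. Further groups gave context. These were 5 WT jejuna labelled 0 h, which carry the 3 Gy label too, while the design text gives harvest at 6 h and 24 h only and does not settle how these mice were treated, and jejuna of Tweak_KO mice, 5 at 24 h and 4 at 6 h after the same dose. The labels do not give the sex or age of the mice, the clock time of harvest or the length of intestine taken. Values are log2 signals of an Affymetrix mouse array as normalized by the authors, and values of 1 group are listed in the order of their replicate numbers. A difference is the mean at 24 h minus the mean at 6 h ± SE, and genes with a limma p under 0.05 after adjustment over all tested genes are referred to as called. All 28 jejunum arrays were in the limma fit and shared its estimate of the spread. Among them were 5 Tweak_KO jejuna labelled 0 h, which carry the 3 Gy label too. The number of arrays limits the precision.

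As background, the epithelium of the small intestine is renewed from dividing cells in the crypts, and ionizing radiation stops these cells before mitosis and kills a share of them. The damage sensor p53 switches on genes of arrest, such as Cdkn1a, and of cell death, such as Bbc3. Genes of mitosis are transcribed late in the cell cycle and silenced by the DREAM complex, which sits on a promoter element called CHR. Differentiated enterocytes on the villi carry out lipid handling and detoxification, and the gut has a circadian clock of its own that responds to feeding.

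The arrays were first checked against markers of the labelled tissue. Vil1, Alpi, Lct, Fabp2, Apoa4 and Slc5a1, which mark small intestinal epithelium, were at log2 11.35 or above in all 9 arrays. Among them, Slc5a1, the sodium-glucose transporter, had 12.97, 12.94, 12.91 and 12.82 at 24 h, against 13.24, 13.12, 13.03, 13.46 and 13.40 at 6 h, and it was not called (-0.34 ± 0.204, limma adjusted p = 0.496). Replicate 2 at 24 h and replicate 4 at 6 h stood apart in markers of position along the intestine. The mean of the proximal marker list was 6.26 in 24 h replicate 2 and between 9.16 and 9.43 in the other 24 h arrays, and it was 7.07 in 6 h replicate 4 and between 8.89 and 9.73 in the other 6 h arrays. Fabp6, the ileal bile acid binding protein, was at 15.28 in 24 h replicate 2 and at 10.22 in 6 h replicate 4, and between 2.42 and 3.01 in the other 7 arrays. Other lists also set 24 h replicate 2 apart from the other 24 h arrays. Its mean was 7.93 for colon genes, against 5.79 to 6.04, and 6.93 for adipocyte and mesentery genes, against 4.40 to 4.54. For smooth muscle and enteric genes it was 8.41, against 7.03 to 7.45. Transcripts of exocrine pancreas also varied: the mean of 15 such genes was 9.19, 4.33, 13.30 and 12.23 at 24 h, against 4.77, 11.19, 9.84, 4.59 and 4.66 at 6 h. In bulk tissue, fewer cells of a type and less RNA per cell cannot be told apart.

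**Figure D1:**
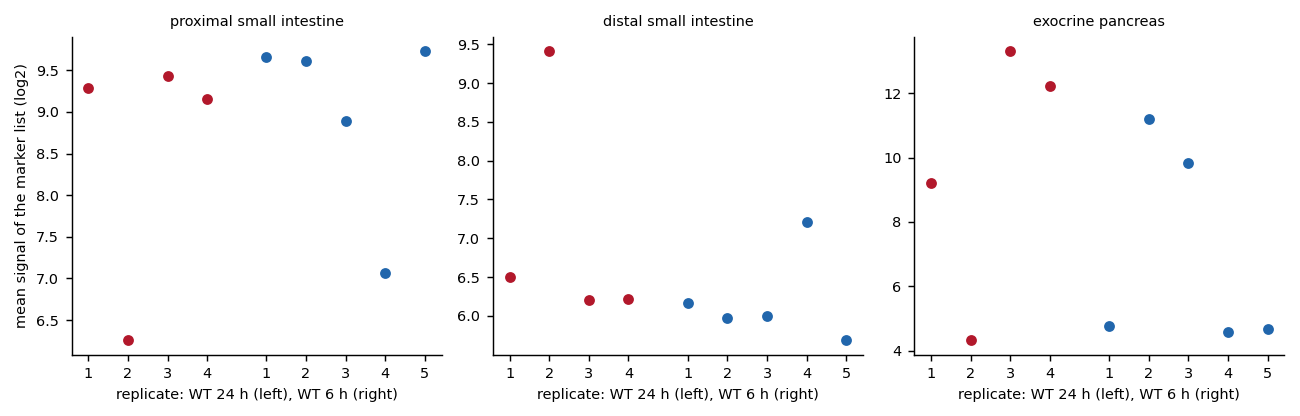
Mean log2 signal of the proximal small intestine, distal small intestine and exocrine pancreas marker lists in each WT array, 24 h replicates (red, left) and 6 h replicates (blue, right). Replicate 2 at 24 h and replicate 4 at 6 h were low for proximal and high for distal markers, and pancreas markers ranged from 4.33 to 13.30.

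Of 13645 genes tested, 63 were higher and 40 lower at 24 h than at 6 h, which is 0.755% called, 0.462% higher and 0.293% lower. The median difference of all tested genes was -0.0010. The called differences exceeded 2-fold for 19 of the higher and 17 of the lower genes. At an unadjusted p under 0.05 there were 1006 higher and 746 lower genes. No 24 h value lay within the 6 h range, or the reverse, for 83 of the 103 called genes and for 505 of all tested genes, or 3.7%. The split between directions moved with the scaling: after a second quantile normalization 65 genes were higher and 72 lower, and with every array shifted to 1 median 44 were higher and 69 lower. The count moved with the arrays in the fit, which share 1 estimate of the spread: with the 9 arrays alone it was 3, all higher. It was 53 without 24 h replicate 1 and 164 without 24 h replicate 2, and 66 without 6 h replicate 3. With both arrays that held distal transcripts left out, 83 genes were higher and 34 lower, and 58 genes were called in both fits.

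Genes of mitosis were lower at 24 h. Of 29 genes on the mitosis list 28 were tested, and 10 were called lower and none higher (35.7%, against 0.293% of all genes tested). All 28 differences were below 0, with a median of -0.98, and for 21 of the 28 the values did not overlap between the groups, against 1.67% of all genes tested. The median was -0.96 without the 2 arrays that held distal transcripts. Of the 28, 6 were then called lower, against 0.249% of all genes tested in that fit. The 10 called genes were Nusap1, Ube2c, Aurka, Hmmr, Nek2, Cdc20, Pttg1, Cdk1, Kif23 and Mki67. The mean over the list was 6.26 to 6.90 in the 0 h jejuna, 6.03 to 7.17 at 6 h and 5.22 to 5.57 at 24 h.

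**Figure D2:**
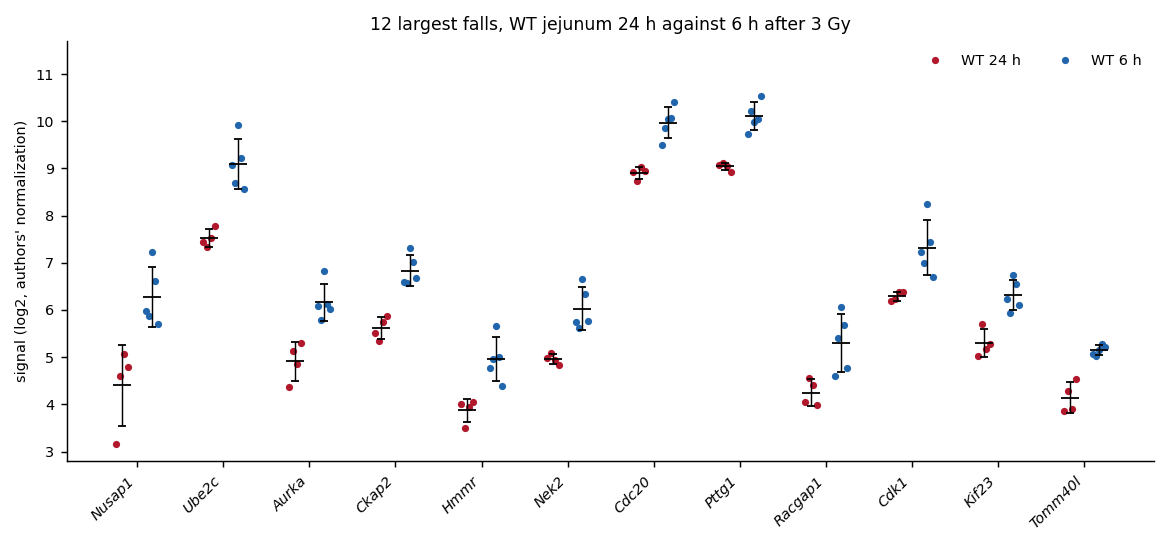
Log2 signal of the 12 genes with the largest called falls whose values did not overlap (clone and model symbols left out), in each WT array at 24 h (red, left of each pair) and 6 h (blue, right); bars are mean ± SD, n = 4 at 24 h and 5 at 6 h. All 24 h points of each gene lie below its 6 h points, with differences from -1.88 for Nusap1 to -1.005 for Tomm40l.

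The promoters of 4 of the largest falls are shown because the CHR element and the CCAAT box of mitotic genes can be read in them. They are the 150 bases before the RefSeq start in GRCm38.p6: Ube2c at chr2:164769779-164769928 (plus strand), Cdc20 at chr4:118437344-118437493, Cdk1 at chr10:69352913-69353062 and Ckap2 at chr8:22185820-22185969 (all minus strand). Capitals mark the letters of the CHR, TTTGAA, and of the CCAAT box, CCAAT, each on either strand.
Ube2c: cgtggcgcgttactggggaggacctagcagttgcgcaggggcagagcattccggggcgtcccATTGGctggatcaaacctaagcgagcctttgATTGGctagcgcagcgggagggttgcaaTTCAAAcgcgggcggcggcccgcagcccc
Cdc20: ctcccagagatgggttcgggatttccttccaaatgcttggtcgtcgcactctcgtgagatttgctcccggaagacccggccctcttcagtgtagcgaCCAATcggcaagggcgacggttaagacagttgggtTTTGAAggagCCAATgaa
Cdk1: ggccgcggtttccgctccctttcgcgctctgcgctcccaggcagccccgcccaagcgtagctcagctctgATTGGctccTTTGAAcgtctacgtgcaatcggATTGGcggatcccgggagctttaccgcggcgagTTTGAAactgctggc
Ckap2: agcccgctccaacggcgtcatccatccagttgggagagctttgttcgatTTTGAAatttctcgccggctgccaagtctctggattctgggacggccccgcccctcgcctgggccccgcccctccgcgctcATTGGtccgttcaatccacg
In Ube2c the CHR letters began 29 bases before the start, in Cdc20 18 bases, and in Cdk1 71 and 15 bases before it. In Ckap2 they lay farther away, 101 bases before the start.

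Windows of 300 bases, from 250 before to 50 after the start, were searched for the same letters on both strands. Of the 12 falls plotted above 11 had a window in the RefSeq table, and 8 of these held the CHR letters and 9 the CCAAT letters, 8 of them both. The 8 were Ube2c, Aurka, Ckap2, Hmmr, Cdc20, Racgap1, Cdk1 and Kif23. Over all 27025 genes in the table, 18.1% held the CHR letters, 37.9% the CCAAT letters and 7.12% both. Over the 10952 tested genes with a window, 12.1% held the CHR letters, 38.1% the CCAAT letters and 4.85% both. The CCAAT letters were not particular to the falls. They were in 6 of 9 windows of the 12 rises named by rank, and in 11 of 15 windows of tested clock genes. The CHR letters were in 2 of those 9 and 0 of those 15. Nusap1 and Pttg1, which fell as well, held neither set of letters in this window. Of 24 mitosis genes tested that had a window, called or not, 17 held the CHR letters, and of the 10 called ones 7 did. A match is a description of these letters and not a sign of binding.

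Among called genes the largest fall was that of Nusap1, a protein that bundles spindle microtubules. The next after Ube2c were Gm6958 (-1.53, limma adjusted p = 0.0323) and 9130208D14Rik (-1.52, 0.0326), which did not overlap either and were left out of the 12 falls named by rank because their symbols are those of gene models or clones. Nusap1 had 3.16, 4.60, 5.07 and 4.79 at 24 h, against 5.97, 5.87, 7.24, 6.62 and 5.70 at 6 h. The highest 24 h array lay below the lowest 6 h array, and 24 h replicate 1 was the lowest of all. The difference was -1.88 ± 0.325, or 3.67-fold lower (limma adjusted p = 0.00763). At 0 h the gene was between 5.69 and 6.95, overlapping the 6 h arrays and above every 24 h array.

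Ube2c encodes the ubiquitin-conjugating enzyme that works with the anaphase-promoting complex. Its promoter is the first shown above. It had 7.45, 7.33, 7.53 and 7.78 at 24 h, against 9.08, 8.70, 9.92, 9.22 and 8.55 at 6 h. The groups did not overlap, and 6 h replicate 3 was the highest array. The difference was -1.57 ± 0.279, or 2.97-fold lower (limma adjusted p = 0.00829), and the 0 h jejuna ranged from 8.48 to 8.99.

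Genes of the same step, the release of sister chromatids, fell with it. Cdc20, the activator of the anaphase-promoting complex, had 8.92, 8.72, 9.03 and 8.95 at 24 h, against 9.49, 9.86, 10.05, 10.07 and 10.40 at 6 h (-1.07 ± 0.229, limma adjusted p = 0.0261). Pttg1, or securin, which that complex destroys at anaphase, had 9.08, 9.11, 9.05 and 8.93 at 24 h, against 9.74, 10.21, 9.99, 10.05 and 10.54 at 6 h (-1.06 ± 0.201, limma adjusted p = 0.0125). In both genes the 24 h arrays lay close together and below every 6 h array, and 6 h replicate 5 was the highest, unlike Ube2c, where replicate 3 was. The probe sets of Cdc20 gave differences from -1.23 to -0.10, and those of Pttg1 from -1.12 to -0.22. The 0 h jejuna spanned 8.68 to 9.64 for Cdc20 and 8.85 to 10.07 for Pttg1, so the lowest 0 h array lay below every 24 h array for either gene.

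The kinases of mitotic entry moved the same way. Cdk1, the kinase that drives entry, had 6.19, 6.23, 6.37 and 6.38 at 24 h, against 7.23, 6.99, 8.24, 7.44 and 6.71 at 6 h, a difference of -1.03 ± 0.25 (limma adjusted p = 0.0499). Aurka, the centrosomal Aurora kinase, had 4.36, 5.12, 4.85 and 5.31 at 24 h, against 6.09, 5.78, 6.83, 6.12 and 6.02 at 6 h (-1.26 ± 0.291, limma adjusted p = 0.0369). Nek2, a kinase that separates centrosomes, had 4.98, 5.08, 4.93 and 4.84 at 24 h, against 5.76, 5.62, 6.67, 6.35 and 5.76 at 6 h (-1.08 ± 0.219, limma adjusted p = 0.0181). None of the 3 overlapped between the groups, and 6 h replicate 3 was the highest array in each. Cdk1 lost its call without any 1 of 24 h replicates 1 to 4 or of 6 h replicates 1, 3 and 4 (adjusted p = 0.0691 to 0.105). Aurka lost it without 24 h replicate 1 or 3 or without 6 h replicate 1, 3, 4 or 5 (adjusted p = 0.0532 to 0.116), and Nek2 kept it each time.

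Kif23 and Racgap1 form the centralspindlin complex of cytokinesis. Kif23 had 5.03, 5.71, 5.17 and 5.28 at 24 h, against 6.24, 5.94, 6.74, 6.54 and 6.12 at 6 h (-1.02 ± 0.196, limma adjusted p = 0.0141). Racgap1, which was not on the list and was named by its rank, had 4.05, 4.56, 4.41 and 3.99 at 24 h, against 4.60, 5.40, 6.07, 5.69 and 4.78 at 6 h (-1.06 ± 0.249, limma adjusted p = 0.0426). The gap was narrow for Racgap1, since 24 h replicate 2 and 6 h replicate 1 lay next to each other. Kif23 was not called without 24 h replicate 1 (adjusted p = 0.0516), and Racgap1 was not without 24 h replicate 1, 3 or 4 or without 6 h replicate 2, 3 or 4 (adjusted p = 0.0610 to 0.107).

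Hmmr, a spindle protein also known as a hyaluronan receptor, had 4.01, 3.50, 3.94 and 4.04 at 24 h, against 4.77, 4.96, 5.67, 5.004 and 4.39 at 6 h (-1.09 ± 0.264, limma adjusted p = 0.0499). It was at the threshold and lost its call without any 1 of the 24 h arrays or of 6 h replicates 1 to 4 (adjusted p = 0.0625 to 0.111). Mki67, which coats mitotic chromosomes and is the usual marker of dividing cells, had 7.67, 7.86, 7.77 and 7.86 at 24 h, against 8.46, 8.28, 8.83, 8.92 and 8.41 at 6 h (-0.79 ± 0.153, limma adjusted p = 0.0141). Mki67 did not overlap between the groups. The 0 h jejuna ranged from 8.69 to 9.38, above all 24 h arrays, and 6 h replicates 3 and 4 lay within that range. The 18 list members that were not called had differences from -0.59 for Kif20a to -1.19 for Ccnb2 (limma adjusted p = 0.0549). Cdc20 lost its call without 24 h replicate 1 or without 6 h replicate 3 or 5 (adjusted p = 0.0535 to 0.0602). Counted over the whole list, 5 of the 28 were called without 24 h replicate 1, 6 without 6 h replicate 3 and 12 without 6 h replicate 2.

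Ckap2, a spindle protein that was not on the list, had the smallest adjusted p of the comparison. It had 5.51, 5.34, 5.74 and 5.86 at 24 h, against 6.59, 6.57, 7.32, 7.01 and 6.69 at 6 h (-1.22 ± 0.149, limma adjusted p = 0.000202). Every 24 h array lay below every 6 h array. The 0 h jejuna had 5.46 to 5.78, so for this gene the 6 h arrays stood above both other times, unlike Ube2c and Nusap1. Further called genes outside the list, chosen after their values were seen, have textbook roles in chromosome segregation: Spc25 (-0.79 ± 0.156, limma adjusted p = 0.0155) of the kinetochore, Sgo1 (-0.94 ± 0.186, 0.0155) of centromeric cohesion, Kif22 (-0.87 ± 0.170, 0.0141) and Ncaph (-0.76 ± 0.183, 0.0450) of chromosome movement and condensation. Cep55, which acts at the end of cytokinesis, fell by 1.11 ± 0.265 (limma adjusted p = 0.0437), and there 24 h replicate 2 lay just above the lowest 6 h array.

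Among the 12 falls named by rank Tomm40l has no textbook role in mitosis. It is a relative of the mitochondrial import channel Tomm40. It had 3.85, 4.29, 3.90 and 4.54 at 24 h, against 5.08, 5.02, 5.15, 5.29 and 5.21 at 6 h (-1.005 ± 0.217, limma adjusted p = 0.0264). The 6 h arrays lay within a narrow band above the 24 h arrays, and the other probe set of the gene gave -0.32. The call was lost without 24 h replicate 1 or 3 or without 6 h replicate 4 (adjusted p = 0.0513 to 0.0749). The 28 other called falls, outside the 12, also included Ripk3, a kinase of necroptosis, chosen here after its values were seen. Ripk3 had 5.03, 7.02, 5.05 and 5.86 at 24 h, against 7.12, 6.70, 7.17, 7.28 and 7.18 at 6 h (-1.35 ± 0.329, limma adjusted p = 0.0499). The 24 h array with distal transcripts, replicate 2, lay among the 6 h arrays.

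DNA replication genes did not follow the mitosis genes. None of 34 tested members was called (limma, 1 higher and 1 lower at an unadjusted p under 0.05), and the median difference was -0.03, with 15 above and 19 below 0. Mcm6, a subunit of the replicative helicase, had 6.48, 7.01, 6.94 and 6.64 at 24 h, against 6.67, 6.23, 7.40, 6.84 and 5.91 at 6 h. The groups overlapped (0.16 ± 0.273, limma adjusted p = 0.859), and the 0 h jejuna were at 6.94 to 8.12. None of 19 DNA repair genes was called either, with none at an unadjusted p under 0.05 and a median of -0.12. The mean over the replication list was 5.75 to 6.17 at 0 h, 5.30 to 6.07 at 6 h and 5.53 to 5.67 at 24 h.

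**Figure D3:**
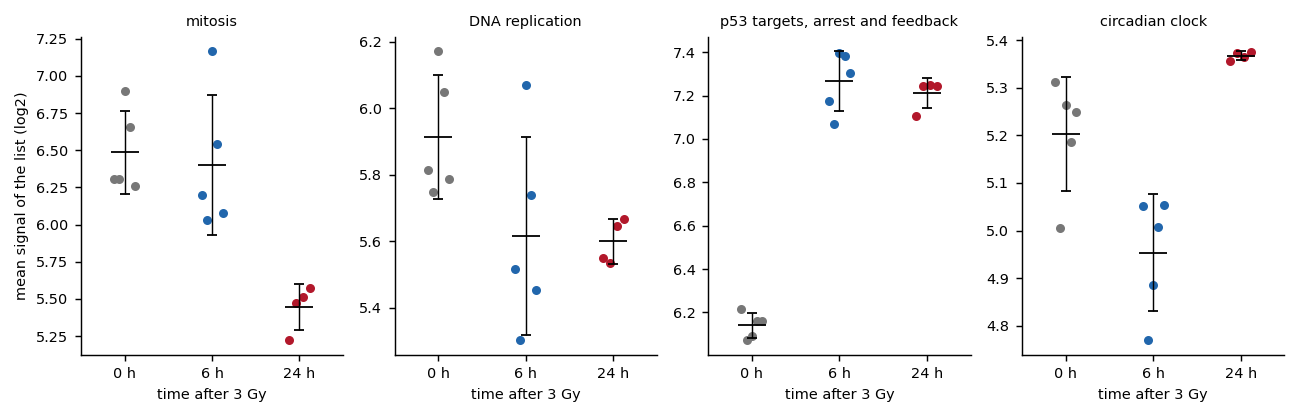
Mean log2 signal of 4 gene lists in each WT jejunum at 0, 6 and 24 h; points are arrays and bars mean ± SD, n = 5, 5 and 4, and each panel has its own scale. Mitosis genes at 24 h lay below all arrays of the other times, replication genes overlapped, p53 arrest genes stood above 0 h at both later times, and clock genes were highest at 24 h.

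Most genes controlled by p53 were not called between the times. Of 15 tested targets of arrest and feedback 1 was called lower, Gtse1, and the median difference was -0.06. Of 11 targets of cell death 1 was called lower, Ei24, with a median of 0.03. For comparison, 0.293% of all genes tested were called lower. Of 12 targets of metabolism and stress none was called (limma, 1 higher at an unadjusted p under 0.05, median 0.11). The mean over the arrest list was 6.07 to 6.22 at 0 h, 7.07 to 7.39 at 6 h and 7.11 to 7.25 at 24 h. The 0 h arrays thus lay below all 6 h and 24 h arrays, which overlapped each other.

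Cdkn1a, the p21 inhibitor of cyclin-dependent kinases, had 11.51, 12.06, 11.36 and 11.25 at 24 h, against 11.13, 11, 10.95, 11.47 and 11.11 at 6 h. The groups overlapped, since 6 h replicate 4 lay above 2 of the 24 h arrays (0.41 ± 0.178, limma adjusted p = 0.311). At 0 h the gene was between 10.18 and 10.69. Mdm2, the ubiquitin ligase of p53, had 7.55, 6.55, 6.36 and 7.15 at 24 h, against 6.89, 6.20, 6.43, 6.83 and 7.01 at 6 h, which overlapped although 24 h replicates 1 and 4 were the highest arrays (0.23 ± 0.214, limma adjusted p = 0.679). Bbc3, or Puma, had a difference of -0.27 ± 0.207 (limma adjusted p = 0.600), and the receptor gene Eda2r one of 0.10 ± 0.264 (limma adjusted p = 0.920), its signals lying between 2.42 and 4.16 near the array floor of 2.32.

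Ccng1, cyclin G1, had 10.36, 10.94, 10.66 and 10.82 at 24 h, against 11.35, 11.27, 11.94, 11.85 and 11.17 at 6 h. No 24 h array reached a 6 h array, and the 0 h jejuna lay far lower, at 8.78 to 9.06. The difference of -0.82 ± 0.221 did not pass the test (limma adjusted p = 0.0742). It did with arrays shifted to 1 median (-0.85, adjusted p = 0.0344), with array weights (-0.81, adjusted p = 0.0177) or with position as a covariate (-0.90, adjusted p = 0.0258). Ccng1 stayed uncalled in every other setting tried, among them the 9 arrays alone, the WT arrays alone and each fit with 1 array left out. Phlda3, a p53-induced inhibitor of Akt, also did not overlap, with 5.87, 6.44, 6.40 and 6.14 at 24 h, against 6.76, 6.45, 7.16, 6.48 and 6.53 at 6 h (-0.47 ± 0.193, limma adjusted p = 0.285).

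Gtse1, which is made in S and G2 phase and moves p53 out of the nucleus, had 3.77, 4.18, 4.27 and 3.67 at 24 h, against 4.75, 4.97, 5.14, 4.48 and 5.04 at 6 h. All 24 h arrays were below all 6 h arrays, and the 0 h jejuna had 3.45 to 3.90. The difference was -0.90 ± 0.153 (limma adjusted p = 0.00763). Ei24, an endoplasmic reticulum protein induced by p53, had 9.28, 9.50, 9.23 and 9.50 at 24 h, against 9.71, 9.67, 9.99, 9.88 and 9.71 at 6 h, a small difference of -0.42 ± 0.0917 (limma adjusted p = 0.0290). It lost its call without 24 h replicate 1 or 3 or without 6 h replicate 3 or 4 (adjusted p = 0.0569 to 0.0877). In the Bcl2 family, 1 of 11 tested genes was called, and it was higher, against 0.462% of all genes tested. This was Bok, a pore-forming member, with 6.22, 5.29, 6.67 and 6.90 at 24 h, against 5.27, 5.27, 5.22, 5.27 and 5.30 at 6 h (1.003 ± 0.214, limma adjusted p = 0.0256). Replicate 2 at 24 h was level with the 6 h arrays, and the call was lost without any 1 of the other 24 h arrays (adjusted p = 0.0572 to 0.0877).

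Stem cell genes were not called. None of 19 tested genes of the crypt stem cell and Wnt list passed (limma, 1 higher and 1 lower at an unadjusted p under 0.05), and the median difference was 0.03. Olfm4, a marker of crypt base cells, had 9.90, 8.05, 10.34 and 10.05 at 24 h, against 10.33, 10.19, 12.004, 10.72 and 10.15 at 6 h (-1.09 ± 0.392, limma adjusted p = 0.208). The difference was -0.58 without 24 h replicate 2, the array with distal transcripts. The groups overlapped at 24 h replicate 3, and the 0 h jejuna, at 11.31 to 12.63, lay above all 24 h arrays. Ascl2, a transcription factor of these cells, differed by 0.15 ± 0.198 (limma adjusted p = 0.793). Lgr5, the receptor that defines them, was between 2.35 and 2.89 in all 9 arrays, near the floor, and a change was not detectable at this signal.

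The largest rises included enzymes and transporters of lipid and drug handling. Of 17 tested genes of fatty acid oxidation and fasting 1 was called, Ppara, and of 20 genes of xenobiotic metabolism 1, Abcb1a, against 0.462% of all genes tested. Without the 2 arrays that held distal transcripts 2 were called higher on each list, against 0.608% of all genes tested in that fit. The median difference of the xenobiotic list was then 0.95 rather than 0.40. Most of the largest rises, such as Ces1d, Acox2, Gsta3 and Sqor, were on no list.

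Ces1d, a carboxylesterase of lipid and drug esters, had the largest rise. It had 10.07, 7.04, 10.26 and 10.02 at 24 h, against 5.77, 5.05, 5.14, 4.04 and 5.83 at 6 h. All 24 h arrays were above all 6 h arrays, and both arrays with distal transcripts were the lowest of their group. The difference was 4.18 ± 0.850, an 18.2-fold increase (limma adjusted p = 0.0181). It was 4.67 without these 2 arrays (adjusted p = 0.00991), and the call was lost without 24 h replicate 1, 3 or 4 (adjusted p = 0.0526 to 0.0598). The 0 h jejuna spread over 4.67 to 9.09, overlapping both other times.

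Abcb1a encodes a P-glycoprotein pump that returns drugs from the enterocyte to the gut lumen. It had 10.83, 11.22, 10.08 and 10.08 at 24 h, against 7.89, 7.93, 7.89, 7.36 and 7.93 at 6 h. The 6 h arrays other than replicate 4 were within a very narrow band, and the lowest 24 h array stood far above them. The difference was 2.75 ± 0.400, or 6.75-fold (limma adjusted p = 0.00145), and with the 9 arrays alone in the fit the gene was still called (adjusted p = 0.0248). At 0 h it had 7.93 to 9.68, below all 24 h arrays. The second probe set of the gene gave a difference of 2.67.

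Enzymes of peroxisomes and mitochondria were among the rises. Acox2, a peroxisomal oxidase of branched-chain and bile acid side chains, had 7.46, 6.57, 7.39 and 6.78 at 24 h, against 5.07, 4.87, 5.11, 3.84 and 5.64 at 6 h (2.15 ± 0.389, limma adjusted p = 0.00976). Sqor, the mitochondrial enzyme that oxidizes hydrogen sulfide, had 8.59, 9.59, 8.78 and 8.28 at 24 h, against 7.52, 6.98, 7.01, 6.71 and 7.59 at 6 h (1.65 ± 0.342, limma adjusted p = 0.0220). Neither overlapped, but Sqor was highest in the 24 h array with distal transcripts. Without that array the adjusted p of Sqor was 0.0537, and without both such arrays it was 0.113, with a difference of 1.27. Other called genes of fatty acid use, chosen after their values were seen, were Hsd17b4 of peroxisomal oxidation (0.83 ± 0.162, limma adjusted p = 0.0141), the carnitine carrier Slc25a20 (0.94 ± 0.224, 0.0445), the fatty aldehyde dehydrogenase Aldh3a2 (0.94 ± 0.196, 0.0220) and the coenzyme A enzyme Pank3 (0.93 ± 0.203, 0.0278).

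Ppara, the nuclear receptor that responds to fatty acids, had 8.28, 7.97, 8.99 and 8.76 at 24 h, against 7.08, 6.89, 7.06, 7.22 and 7.09 at 6 h. The 6 h arrays lay close together, and all 24 h arrays were above them. The difference was 1.43 ± 0.335 (limma adjusted p = 0.0396), and all 3 probe sets gave 1.43 to 1.55. Its call was lost without any 1 array other than 24 h replicate 2 (adjusted p = 0.0560 to 0.112). Some further genes of fatty acid use did not pass the test. Acot2, a mitochondrial thioesterase, did not overlap between the groups (1.53 ± 0.379, limma adjusted p = 0.0521), while Acot1 (2.295 ± 0.592, 0.0635), Pdk4 (1.38 ± 0.848, 0.505) and Angptl4 (1.60 ± 0.608, 0.239) overlapped and were not called, except that Acot1 was called without the 2 arrays that held distal transcripts (2.62, adjusted p = 0.0229). These 4 were named after their values were seen.

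Gsta3, an alpha-class glutathione transferase, had 6.05, 4.24, 5.70 and 5.09 at 24 h, against 3.84, 2.41, 4.06, 2.36 and 3.07 at 6 h (2.12 ± 0.454, limma adjusted p = 0.0256). The lowest 24 h array was just above the highest 6 h array, and 2 of the 6 h arrays were near the floor, so the size of the difference is approximate. It was not called without 24 h replicate 1 or 3 or without 6 h replicate 2 or 4 (adjusted p = 0.0540 to 0.0761). Other called genes of glutathione use, chosen after their values were seen, were Gclm, a subunit of the enzyme that makes the glutathione precursor (0.88 ± 0.208, limma adjusted p = 0.0426), the transferase Mgst2 (0.50 ± 0.111, 0.0290) and the glutaredoxin Glrx (0.50 ± 0.121, 0.0450).

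**Figure D4:**
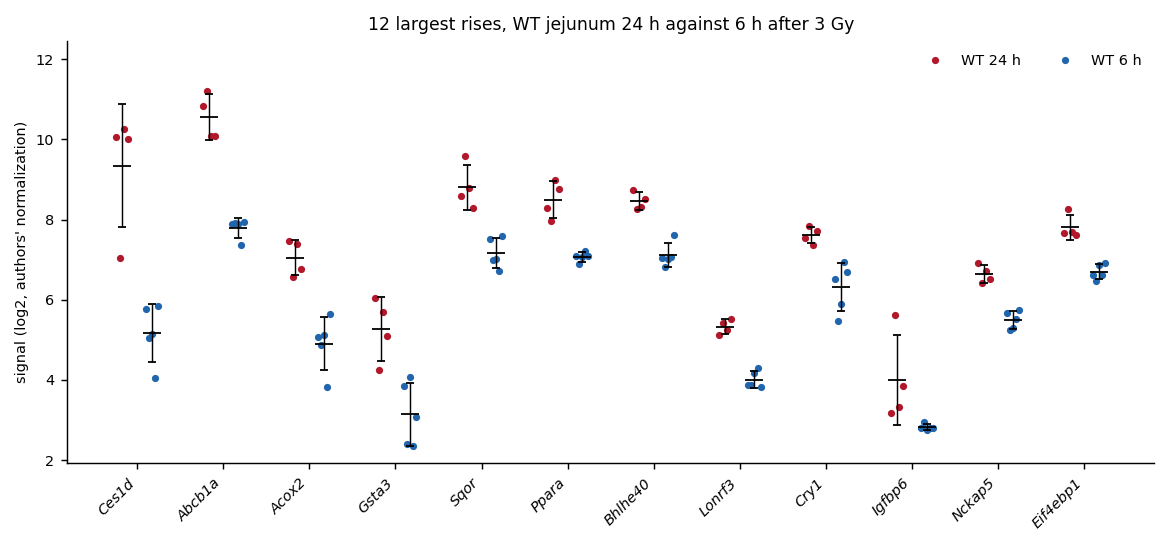
Log2 signal of the 12 genes with the largest called rises whose values did not overlap (clone and model symbols left out), in each WT array at 24 h (red, left of each pair) and 6 h (blue, right); bars are mean ± SD, n = 4 at 24 h and 5 at 6 h. All 24 h points of each gene lie above its 6 h points, with differences from 4.18 for Ces1d to 1.11 for Eif4ebp1.

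The remaining large rises had varied roles. Eif4ebp1, which restrains translation by binding the cap-binding factor, had 7.66, 8.27, 7.68 and 7.62 at 24 h, against 6.62, 6.47, 6.86, 6.62 and 6.91 at 6 h (1.11 ± 0.193, limma adjusted p = 0.00763). One of its 3 probe sets gave -0.06. Nckap5 had 6.91, 6.43, 6.73 and 6.51 at 24 h, against 5.66, 5.24, 5.31, 5.52 and 5.74 at 6 h (1.15 ± 0.226, limma adjusted p = 0.0151), and it lost its call without 24 h replicate 1 (adjusted p = 0.0572). Neither gene overlapped between the groups. Lonrf3 had 5.12, 5.42, 5.25 and 5.53 at 24 h, against 3.87, 3.87, 4.18, 4.30 and 3.82 at 6 h (1.32 ± 0.297, limma adjusted p = 0.0306). It was called without 6 h replicate 4 and not without any other array (adjusted p = 0.0512 to 0.0823). Igfbp6, which binds insulin-like growth factors, had 3.19, 5.61, 3.33 and 3.85 at 24 h, against 2.81, 2.94, 2.76, 2.81 and 2.81 at 6 h (1.17 ± 0.265, limma adjusted p = 0.0323). Its size rested on 24 h replicate 2, since the difference was 0.63 without that array, and it was not called without 24 h replicate 4 or without 6 h replicate 1, 3, 4 or 5 (adjusted p = 0.0560 to 0.0687).

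The other 51 called rises lay outside these 12, and 44 of the 63 differences were under 2-fold. Some rested on few arrays. Mtarc1, a mitochondrial reductase, had 5.24, 2.32, 4.91 and 3.61 at 24 h and was at the floor of 2.32 in all 5 arrays at 6 h (1.70 ± 0.319, limma adjusted p = 0.0118). Amy1, an amylase gene, had 2.34, 3.80, 5.60 and 4.29 at 24 h, against 2.32, 2.36, 2.67, 2.32 and 2.32 at 6 h (1.61 ± 0.383, limma adjusted p = 0.0437). The exocrine pancreas mean was 9.19, 4.33, 13.30 and 12.23 in the same 24 h arrays. Its part in the Amy1 difference was not tested. Among the smaller differences, Egfr, the receptor of epidermal growth factor, rose by 0.65 ± 0.142 (limma adjusted p = 0.0277), although 1 other probe set above the floor gave -0.03, and Lrp1, a lipoprotein receptor, rose by 0.67 ± 0.123 (limma adjusted p = 0.00990). These 4 genes were chosen after their values were seen.

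Clock genes were mostly higher at 24 h, few of them past the test. Of 17 tested genes 2 were called higher, Bhlhe40 and Cry1, against 0.462% of all genes tested, and none was called lower. At an unadjusted p under 0.05 (limma) 6 were higher and 2 lower. The values of 8 did not overlap and were higher at 24 h, against 2.03% of all genes tested. The differences were above 0 for 15 of 17, with a median of 0.47 (0.63 without the 2 arrays that held distal transcripts). Among the 15, Rora, Clock, Per3 and Ciart differed by only 0.008 to 0.031. Below 0 were Nr1d1 and its relative Nr1d2 (-1.16 ± 0.430, limma adjusted p = 0.223). The mean over the list was 5.01 to 5.31 at 0 h, 4.77 to 5.05 at 6 h and 5.36 to 5.38 at 24 h. The labels do not give the hour of harvest, so the time after radiation and the time of day cannot be told apart here.

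Bhlhe40, a repressor of the clock also called Dec1, had 8.74, 8.25, 8.32 and 8.52 at 24 h, against 7.04, 6.83, 7.02, 7.06 and 7.62 at 6 h. The groups did not overlap, and 6 h replicate 5 stood above the other 6 h arrays. The difference was 1.35 ± 0.236 (limma adjusted p = 0.00763), and the 0 h jejuna ranged from 7.57 to 8.76, over the gap. Cry1, another repressor of the clock, had 7.55, 7.83, 7.38 and 7.71 at 24 h, against 6.52, 5.48, 5.90, 6.93 and 6.70 at 6 h (1.31 ± 0.309, limma adjusted p = 0.0426). Its 24 h arrays were close together and its 6 h arrays spread. Cry1 was not called without any 1 of the 24 h arrays or of 6 h replicates 1, 2 and 3 (adjusted p = 0.0561 to 0.0923).

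The promoter of Cry1 is shown because clock factors bind the E-box, CACGTG, which is in capitals. It is the 150 bases before the RefSeq start, chr10:85185055-85185204 of GRCm38.p6, minus strand, and the letters begin 60 bases before the start.
Cry1: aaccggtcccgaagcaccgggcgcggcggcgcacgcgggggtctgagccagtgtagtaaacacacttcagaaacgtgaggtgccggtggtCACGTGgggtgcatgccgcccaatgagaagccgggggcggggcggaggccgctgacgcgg
In windows of 300 bases, 4 of 15 clock genes with a window held these letters, against 7.24% of all genes in the table and 9.88% of tested genes with a window. They were Ciart, Cry1, Per1 and Tef, of which Cry1 was called.

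Other clock genes had wide spreads. Per2, a period gene, had 4.60, 5.38, 5.71 and 4.87 at 24 h, against 3.52, 3.52, 3.19, 3.98 and 3.26 at 6 h. The groups did not overlap, yet the difference of 1.65 ± 0.509 was not called (limma adjusted p = 0.128), and another probe set of Per2 gave 0.02. Nr1d1, or Rev-erb alpha, a repressor of the clock, had 3.71, 3.14, 3.14 and 2.63 at 24 h, against 5.96, 5.75, 5.33, 3.71 and 5.23 at 6 h (-2.04 ± 0.625, limma adjusted p = 0.123). Among the settings tried it was called only in a fit without the 0 h groups (adjusted p = 0.0226). The 0 h jejuna had 3.24, 3.49, 3.33, 6.35 and 6.27. Arntl itself, or Bmal1, had 7.04, 7.10, 7.005 and 7.15 at 24 h, against 6.74, 6.10, 6.92, 6.82 and 6.77 at 6 h, a small difference that did not overlap and was not called (0.40 ± 0.420, limma adjusted p = 0.729). Dbp, an output gene of the clock, overlapped (0.27 ± 0.727, limma adjusted p = 0.927), and its second probe set gave -0.22.

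Genes that respond to glucocorticoids, which follow a daily rhythm and stress, were not called among 12 tested (limma, 4 higher and 0 lower at an unadjusted p under 0.05). Their median difference was 0.67. Zbtb16 had 6.27, 6.07, 6.00 and 5.35 at 24 h, against 3.35, 4.13, 3.03, 4.02 and 4.23 at 6 h, with no overlap (2.17 ± 0.639, limma adjusted p = 0.108). Fkbp5, a chaperone of the receptor, had 8.48, 9.19, 9.51 and 8.16 at 24 h, against 6.03, 5.80, 6.51, 8.64 and 7.57 at 6 h, where 6 h replicate 4 reached the 24 h arrays (1.93 ± 0.739, limma adjusted p = 0.241). The heat shock gene Hspa1b did not overlap either (2.21 ± 0.764, limma adjusted p = 0.189).

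No member of the lists of other cell types in the jejunum was called with all arrays in the fit. All 20 tested interferon response genes had differences below 0, with a median of -0.38 (limma, 0 called, 2 lower at an unadjusted p under 0.05). The mean over that list was 6.45 to 6.62 at 24 h, against 8.87 in 6 h replicate 5 and 6.28 to 6.87 in the other 6 h arrays. The part of that 1 array in the list's differences was not tested. T cell and intraepithelial lymphocyte genes had a median of -0.29 (0 of 15 called, 3 lower at an unadjusted p under 0.05), and B cell genes one of -0.10 (0 of 15 called, 1 lower). Reg3g, an antimicrobial lectin of Paneth cells and enterocytes, had 8.92, 14.34, 10.31 and 10.45 at 24 h, against 14.17, 13.004, 14.06, 14.20 and 12.17 at 6 h (-2.52 ± 0.674, limma adjusted p = 0.0742), with 24 h replicate 2, which held distal transcripts, the highest array of all. Without both such arrays Reg3g was called (-3.46, adjusted p = 0.000820), and so was its relative Reg3b (-1.80, adjusted p = 0.0468). Absorptive enterocyte genes had a median of 0.07 over 22 tested (limma, 1 higher at an unadjusted p under 0.05).

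Smooth muscle and enteric genes were above 0 for all 14 tested, with a median of 0.51, or 0.19 without the 2 arrays that held distal transcripts (limma, 0 called, 5 higher at an unadjusted p under 0.05). All 15 exocrine pancreas genes were above 0, with a median of 3.04, or 4.30 without those arrays, and none was called or had an unadjusted p under 0.05 (limma). Of the 45 lists examined, 38 had no called member. The receptor of Tweak, Tnfrsf12a, had 5.49, 4.38, 4.74 and 4.37 at 24 h, against 4.48, 4.52, 4.96, 4.13 and 4.24 at 6 h, which overlapped (0.28 ± 0.224, limma adjusted p = 0.617). None of 9 tested genes of the Tweak pathway was called (limma, 1 higher at an unadjusted p under 0.05).

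The same interval was then set beside that of Tweak_KO jejuna. In those, 16 genes were called, or 0.117%, of which 8 were higher and 8 lower. Nusap1, Ube2c, Ckap2 and Nek2 were called in both genotypes and fell in both, which is 3.88% of the WT calls and 25% of the KO calls. Nusap1 differed by -1.88 in WT and -1.87 in KO jejuna, and Ckap2 by -1.22 in WT and -1.21 in KO jejuna. Of the falls named by rank, Pttg1 and Tomm40l did not fall in KO jejuna. Pttg1 differed by -1.06 in WT and 0.21 in KO jejuna, and Tomm40l by -1.005 in WT and 0.25 in KO jejuna. Neither genotype difference was called (limma adjusted p = 0.0751 and 0.122). The other falls named by rank were below 0 in both genotypes. The mitosis list had a median of -0.98 in WT and -0.67 in KO jejuna, and 28 and 27 of its 28 genes were below 0. The difference between genotypes was called for none of these 28 genes (limma, 2 at an unadjusted p under 0.05, against 1394 of all 13645 tested). The clock list had a median of 0.47 in WT and -0.71 in KO jejuna.

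The difference of the changes, WT minus KO, was called for 5 genes, 0.0366% of those tested. Abcb1a differed by 3.39 ± 0.565 (limma adjusted p = 0.0199), with a change of 2.75 in WT and -0.63 in KO jejuna. Bhlhe40 differed by 2.05 ± 0.333 (limma adjusted p = 0.0199), with 1.35 in WT and -0.71 in KO jejuna. It was the 1 clock gene of 17 that was called. An unadjusted p under 0.05 (limma) was found for 11 of the 17, against 1394 of all 13645 genes tested. Ppara differed by 2.63 ± 0.473 (limma adjusted p = 0.0397), with 1.43 in WT and -1.20 in KO jejuna. The small GTPase Rras differed by 0.96 ± 0.181 (limma adjusted p = 0.0499), with 0.94 in WT and -0.02 in KO jejuna (8.65, 9.16, 8.80 and 8.71 in WT at 24 h, against 8.18, 8.01, 7.84, 7.57 and 7.84 in WT at 6 h), and Arhgef2, an activator of RhoA, by -1.03 ± 0.194 (limma adjusted p = 0.0499), with -0.55 in WT and 0.48 in KO jejuna. The last 2 were at the threshold. With 1 of the 18 arrays left out in turn, Ppara lost its call in 11 cases (adjusted p = 0.0530 to 0.108), Rras in 13 and Arhgef2 in 14, and Abcb1a and Bhlhe40 in 3 each.

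The makeup of the arrays also differed between the genotypes. The proximal minus distal marker mean was -3.15 in WT 24 h replicate 2 and 2.79 to 3.23 in the other WT 24 h arrays, and it was -0.14 in WT 6 h replicate 4 and 2.90 to 4.04 in the other WT 6 h arrays. In KO jejuna it was -0.36, 0.65, 0.82, 3.44 and 3.25 at 24 h, and -0.35 to -0.15 in all 4 arrays at 6 h. With this measure as a covariate 21 genes were called, and Abcb1a, Ppara, Bhlhe40 and Rras were among them. Abcb1a was at 7.36 in WT 6 h replicate 4 and at 10.33 to 10.76 in the KO 6 h arrays, which had like values of this measure. That is 1 WT array, and it lay below the others of its group for this gene. In WT 24 h replicate 2, at -3.15 in this measure, Abcb1a was at 11.22, the highest of its group. The KO 24 h arrays had 10.21, 9.84, 10.57, 9.07 and 9.89 for Abcb1a. Beyond the fit with the covariate, the part of position in the Abcb1a difference was not tested. No gene was called without KO 6 h replicate 1, KO 24 h replicate 2 or KO 6 h replicate 4 (limma, 1421, 1294 and 1100 genes at an unadjusted p under 0.05), and 26 were without WT 24 h replicate 2. The array file names of the WT arrays also carry another leading number than those of the KO arrays at 6 h and 24 h, so that number and genotype cannot be told apart. Clock genes stood at other levels in KO jejuna as well. Dbp was at 3.52 to 5.10 in the WT arrays of both times. In KO jejuna it was at 9.56 to 9.85 at 6 h, and at 9.996, 9.69, 10.42, 5.66 and 8.19 at 24 h. Arntl was at 6.10 to 7.15 in the same WT arrays. Its KO values were 3.41 to 4.40 at 6 h, and 4.28, 4.58, 4.41, 7.15 and 5.19 at 24 h. As the hour of harvest is not given, genotype and clock time cannot be told apart here.

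**Figure D5:**
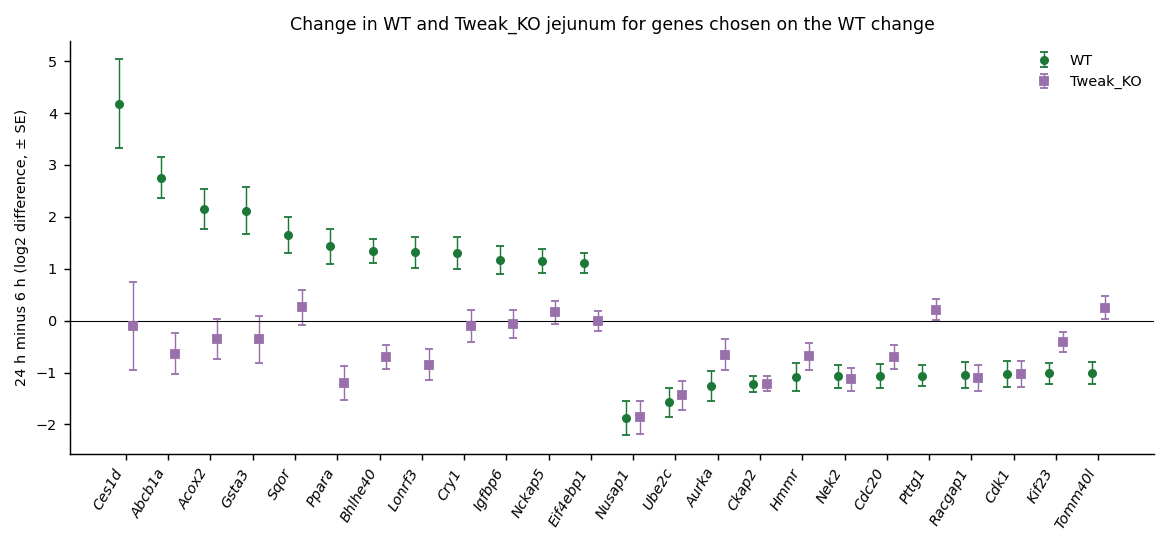
Difference of log2 signal between 24 h and 6 h ± SE in WT (green circles, left of each pair) and Tweak_KO jejuna (purple squares, right), for the 12 rises and 12 falls named by rank in WT. The genes were chosen on the WT values, so the WT points lie away from 0 by choice; KO points lay between -1.20 and 0.25 for the rises and between -1.87 and 0.25 for the falls.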

How the data were processed

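RNA of whole jejunum was hybridised to Affymetrix mouse arrays of 45101 probe sets. The authors deposited log2 signals, normalized over the 28 jejunum arrays in 1 table. Per the submitters' processing notes RMA and GCRMA were used, with no version or role given, and the genome build is not given in the sources used here. The lowest deposited log2 value was 2.32, and 28.8% to 33.3% of probe sets lay within 0.001 of it in the 9 arrays compared, so differences of dim genes are understated. The array medians were 2.64 to 2.69. The value table of the series held the same values. The table also held 6 columns of the authors' group means, which equalled the means of the arrays and were not used in tests.

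The platform annotation named a single gene for 34958 probe sets, more than 1 for 932, and no gene for the other 9211. Symbols of 18033 of 18194 genes were matched through their Entrez ID. The probe set with the highest mean stood for its gene, and the lowest 25% of genes by mean were left out, which left 13645. Group means of 28 arrays in 6 groups were fitted with limma 3.58.1 in R 4.3.3 (lmFit, contrasts, eBayes with a trend), two-sided, with Benjamini-Hochberg adjustment over all tested genes and a threshold of 0.05. The script was tested on simulated data.

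Genes were named by rule: the 12 largest called rises and falls without overlap (symbols of clones, gene models, pseudogenes and accessions skipped, which left out 9130208D14Rik and Gm6958 among the falls), up to 4 called members of each of 45 lists, the largest called genotype differences, and 18 genes chosen by name, of which 15 were measured and tested. All other genes named, markers and members of uncalled lists included, were chosen after their values were seen. The members and lists were chosen with earlier results of these data known. Promoters came from RefSeq (GRCm38.p6), 1 per symbol. Replicate numbers were not treated as pairs, since every array held a different mouse. Deviations of WT arrays sharing a number correlated at 0.373, -0.337, 0.301 and -0.211. So few values cannot decide whether a shared number carried a batch. The colon arrays were not used.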

Additional observations from a re-analysis of the deposited data

Results flagged for a closer look

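Each of 102 groups of values of the WT arrays at 24 h or 6 h was searched for a sample far from the others of its group. Of these, 8 were found, where chance gives about 1 in 20 groups. The KO arrays were not searched in this way. In the array of 24 h replicate 2, Ces1d was at 7.04, against 10.02 to 10.26 in the other 24 h arrays, and Eif4ebp1 was at 8.27, against 7.62 to 7.68. The same array had a proximal small intestine mean of 6.26, against 9.16 to 9.43, and a distal mean of 9.41, against 6.20 to 6.50. At 6 h, Abcb1a was at 7.36 in replicate 4 and at 7.89 to 7.93 in the others, Bhlhe40 at 7.62 in replicate 5 and at 6.83 to 7.06 in the others, and Arntl at 6.10 in replicate 2 and at 6.74 to 6.92 in the others. The interferon response mean was 8.87 in 6 h replicate 5 and 6.28 to 6.87 in the others.

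The change between 24 h and 6 h differed between WT and KO jejuna for 5 genes in the test of the difference itself (limma). It was 3.39 for Abcb1a, 2.63 for Ppara, 2.05 for Bhlhe40, 0.96 for Rras and -1.03 for Arhgef2, all WT minus KO on the log2 scale.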

How the results depend on the processing

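The count of 103 called genes was 3 with the 9 arrays alone in the fit, 38 with the WT arrays, 221 with array weights, 271 with position and 176 with the pancreas mean as a covariate, and 53 to 164 with 1 array left out. Of the 28 tested mitosis genes, 10 of them called with the fit as reported, 5 were called in the fit without the 0 h groups, 0 with the 9 arrays alone (limma, 23 at an unadjusted p under 0.05), 5 with the WT arrays, 16 with arrays shifted to 1 median, 6 without both arrays that held distal transcripts, and 5 to 12 with 1 array left out. The 5 genotype differences became 34 without the 0 h groups, 13 without the variance trend, 8 with mean probe sets, 17 with the lowest 50% of genes left out, 14 after quantile normalization, 2 with 1 median, 216 with weights, 21 with position and 28 without both distal arrays, and 0 to 26 with 1 array left out. The causes were not tested. With the replicate block 105 genes were called, 87 of them shared, 10 mitosis genes and 2 genotype differences, and 5 of 29 named called genes lost their call. With the mean of a gene's probe sets 85 genes were called, and 7 of the 29 lost their call. These were Lonrf3, Aurka, Hmmr (-0.49, limma adjusted p = 0.218), Racgap1, Cdk1, Kif23 and Tomm40l. The signs that turned belonged to uncalled genes. Lgr5 was -0.012 with 1 median, -0.15 with position, -0.10 with the replicate block and -0.073 to 0.079 with 1 array left out, Dbp was -0.051 with position, Eda2r was -0.16 without both distal arrays and -0.035 to 0.38 with 1 array left out, and Mcm6 was -0.016 to 0.36 with 1 array left out. The pancreas covariate and the removal of both distal arrays were chosen after seeing the data. Few arrays a group and signals near the floor limit what could be detected.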
